A study of Mus musculus with 7 samples.

Results

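Sox17, Lin28b, Hmga1, Hmga2, Igf2bp1, Igf2bp2, Igf2bp3 and Arid3a are genes tied to the fetal programme of blood stem and progenitor cells. Their transcripts were examined in haematopoietic stem cells sorted from the mouse fetal liver. The members were all probe sets that the array's annotation assigns to a single one of these genes. This gave 12 of the 22626 probe sets tested, and they cover 5 of the 8 genes, with 2 probe sets for Sox17, 3 for Hmga2, 2 for Igf2bp1, 4 for Igf2bp3 and 1 for Arid3a. No probe set of the annotation used here names Lin28b, Hmga1 or Igf2bp2, so these genes are not analysed here. The TFIIA nc/nc group held 3 samples from embryos homozygous for TFIIAα-βnc, a form of the general transcription factor subunit that cannot be cleaved, pooled from 2, 2 and 4 littermates. It was compared with 4 wild-type samples of 1, 1, 4 and 3 embryos. All embryos came from crosses of heterozygous parents and were taken at embryonic day 14.5, and the allele was carried by the whole embryo, so the liver around the stem cells had it too. The sorted cells lacked lineage antigens and carried CD150, c-Kit and Sca-1 on their surface, and each sample was hybridised to 1 array. The labels call the samples biological replicates. They tie no litter or day to both genotypes.

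SOX17 is an HMG-box transcription factor of the SoxF group. In the mouse it maintains fetal and neonatal but not adult blood stem cells, and it is also a regulator of endothelium, above all of arteries. LIN28B blocks the maturation of let-7 microRNAs, which otherwise silence Hmga2, the Igf2bp genes and Lin28b itself. HMGA2, a chromatin protein that binds AT-rich DNA in the minor groove, promotes the self-renewal of fetal stem cells, and IGF2BP proteins bind messenger RNAs and govern their stability and translation.

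Levels are log2 values of normalised probe set intensities. Array medians over all probe sets were 3.69 to 3.82, and the lowest value on any array was 1.16. No detection calls were used, so a probe set below the median is called dim rather than absent. Hybridisation strength differs between probe sets, so levels are compared between samples and not between genes. The marker genes Kit, Procr, Hlf and Gata2 were bright in all samples, and the mean of 13 stem cell markers was 6.51, 6.59 and 6.77 in the TFIIA nc/nc samples and 6.64, 6.82, 6.79 and 6.92 in the wild-type samples. Mecom and Erg, which also mark stem cells, were dim, with means of 2.37 and 2.92 over the 7 arrays. Endothelial transcripts were high in 3 arrays. The mean of 17 endothelial markers was 6.27, 6.67 and 3.58 in the TFIIA nc/nc samples, replicates 1 to 3 in order, against 6.42, 3.50, 3.84 and 3.48 in wild-type replicates 1 to 4. The 3 arrays were picked out by these same markers, so a high count for this list follows from that choice. Of the 17 markers, 15 were above all of the other 4 arrays in each of the 3. The same held for 8 of 17 hepatoblast and hepatocyte markers, 2 of 12 macrophage markers and 3 of 7 megakaryocyte markers. It held for 1 of 12 mesenchymal markers, 1 of 8 erythroid markers, 0 of 6 lineage markers that the sort excludes and 0 of the 13 stem cell markers. The share of all genes that read higher in these 3 arrays was not counted. The stem cell mean was lower in these 3 arrays, at 6.51 to 6.64, than in the other 4, at 6.77 to 6.92. The other 4 arrays were not alike in all lists. The macrophage mean was 3.81, 4.67 and 5.13 in the TFIIA nc/nc samples and 4.43, 4.39, 2.96 and 3.52 in the wild-type samples. It was thus highest in TFIIA nc/nc replicate 3, the only sample of its genotype among the other 4.

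Sox17 read higher in the 3 arrays with endothelial transcripts than in the other 4, where it was dim, in both genotypes. The brighter probe set, 1429177_x_at, read 5.54, 6.01 and 1.94 in the TFIIA nc/nc samples and 6.13, 2.58, 2.21 and 1.92 in the wild-type samples. The high samples were the first and second of TFIIA nc/nc and the first of wild type, and the genotypes overlapped over nearly their whole range. The gap between the lowest of the 3 high arrays and the highest of the 4 low arrays was 2.96 log2 units. The suffix of this probe set marks probes that resemble other transcripts, so it may not read Sox17 alone. The second probe set, 1421657_a_at, read 2.72, 4.11 and 2.04 in the TFIIA nc/nc samples and 3.81, 2.15, 2.29 and 2.08 in the wild-type samples. It was dimmer, and the same 3 arrays were its highest. Among them it was dim in TFIIA nc/nc replicate 1, where the array median was 3.77, and at the array median of 3.81 in wild-type replicate 1.

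The genotype difference of Sox17 did not pass the test on either probe set, and its sign depended on the arrays with endothelial transcripts. For 1429177_x_at the level averaged 4.50 ± 2.23 over the 3 TFIIA nc/nc samples and 3.21 ± 1.96 over the 4 wild-type samples (SD). The difference of 1.29 had a standard error (SE) of 1.17 and a 95% interval from -1.35 to 3.92 (limma, Benjamini-Hochberg adjusted p = 0.984, exact permutation p = 0.457). With the endothelial mean as a covariate it was -0.33 (SE 0.23, limma adjusted p = 0.951), and without the 3 arrays, which leaves 1 TFIIA nc/nc sample, -0.30 (SE 0.32). In that fit the lone sample is assumed to vary like the others. Leaving out 1 array gave 0.53 to 2.57, lowest without TFIIA nc/nc replicate 2 and highest without TFIIA nc/nc replicate 3, and 2.26 without wild-type replicate 1. For 1421657_a_at the difference was 0.37 (SE 0.53), with the covariate -0.29, without the 3 arrays -0.14, and without TFIIA nc/nc replicate 2 alone -0.21. In these bulk sorts, fewer cells of a type and less RNA per cell cannot be told apart.

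**Figure D1:**
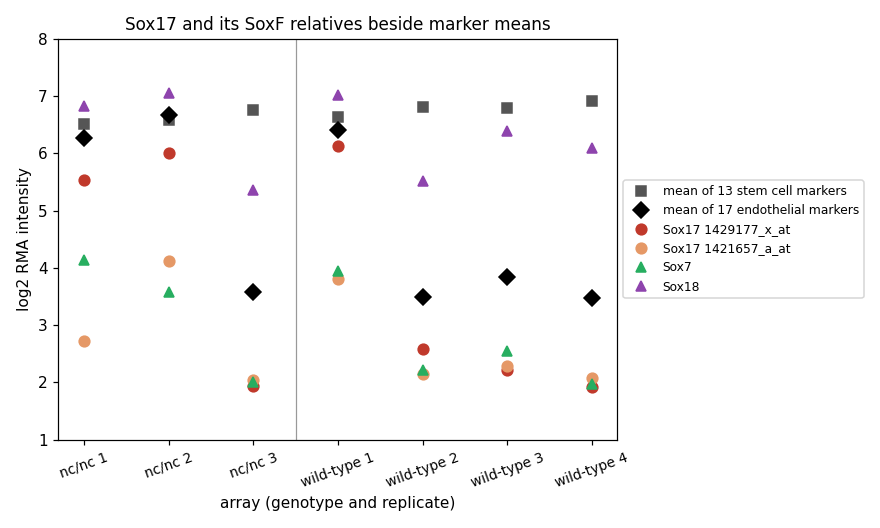
Log2 intensity of both Sox17 probe sets, of its relatives Sox7 and Sox18, and of the means of 17 endothelial and 13 stem cell markers, in each of the 7 arrays, TFIIA nc/nc on the left and wild type on the right. Sox17 1429177_x_at lies at 5.54 to 6.13 in the 3 arrays whose endothelial mean is 6.27 to 6.67. It lies at 1.92 to 2.58 in the 4 arrays whose endothelial mean is 3.48 to 3.84. The stem cell mean is 6.51 to 6.64 in the 3 arrays and 6.77 to 6.92 in the 4.

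The other SoxF genes were also highest in these 3 arrays. Sox7, which acts in the first steps of blood and endothelial development, read 4.14, 3.57 and 2.00 in TFIIA nc/nc and 3.94, 2.21, 2.55 and 1.97 in wild type. Sox18, a regulator of lymphatic and blood vessels, read 6.83, 7.06 and 5.36 in TFIIA nc/nc and 7.01, 5.52, 6.40 and 6.09 in wild type. Unlike Sox17, Sox18 was above the array medians in all 7 samples. Sox7 and Sox18 were singled out after their values were seen.

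Gpr182, Flt4 and Clec14a were the genes whose profile over the 7 arrays lay closest to that of Sox17 1429177_x_at. Closeness was the root mean square difference of mean-centred log2 profiles, among 841 genes with an SD over the arrays of at least 0.5. It was 0.21 for Gpr182, a receptor of endothelial cells, 0.22 for Flt4, which encodes the receptor VEGFR3, and 0.25 for Clec14a, an endothelial lectin, where the SD of Sox17 itself was 2.01. The 3 genes were looked up after the Sox17 values were seen, since Sox17 was too dim for the rule applied to the other members. Gpr182 is also 1 of the 17 endothelial markers that picked out the 3 arrays. Any gene so close to the Sox17 profile has to be high in those arrays, so the 3 genes are no separate check on Sox17.

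Hmga2 was bright in every sample and varied little. Probe set 1422851_at read 9.79, 9.58 and 9.99 in TFIIA nc/nc and 9.89, 10.19, 10.01 and 9.90 in wild type. TFIIA nc/nc replicates 1 and 2 lay below all wild-type samples, and replicate 3 lay among them. The level averaged 9.78 ± 0.20 over the 3 TFIIA nc/nc samples and 9.996 ± 0.14 over the 4 wild-type samples (SD), a difference of -0.21 (SE 0.16, 95% interval -0.57 to 0.14, limma adjusted p = 0.984). Probe set 1450780_s_at read 9.67, 9.65 and 9.81 in TFIIA nc/nc and 9.67, 10.08, 9.99 and 9.99 in wild type. Wild-type replicate 1 lay among the TFIIA nc/nc samples there, and the difference was -0.22 (SE 0.15, limma adjusted p = 0.984, exact permutation p = 0.0857). The 95% intervals of these 2 probe sets, the second from -0.56 to 0.12, left room for a lower level in TFIIA nc/nc of up to 0.57 and for a higher one of up to 0.14. The third probe set, 1450781_at, was more variable, at 8.74, 8.35 and 9.06 in TFIIA nc/nc and 9.15, 9.47, 8.30 and 8.46 in wild type. Its difference of -0.13 (SE 0.30) had no settled sign, and became 0.06 once TFIIA nc/nc replicate 2 was left out and 0.08 once wild-type replicate 2 was.

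Hmga2, unlike Sox17, was bright also where endothelial transcripts were low, and its 2 brighter probe sets read lowest in the 3 arrays of high endothelial transcripts. On 1422851_at these arrays read 9.58 to 9.891 and the other 4 read 9.896 to 10.19, so the groups all but touched. On 1450780_s_at they read 9.65 to 9.67 and the others 9.81 to 10.08. The third probe set, 1450781_at, did not split so, at 8.35 to 9.15 in the 3 arrays and 8.30 to 9.47 in the others. The share of all probe sets that read lower in these 3 arrays was not counted. The stem cell marker mean was also lower in these 3 arrays, at 6.51 to 6.64 against 6.77 to 6.92. A link between the stem cell mean and Hmga2 was not tested. When the endothelial mean entered the fit, the genotype difference was -0.12 on both (SE 0.17 and 0.16). Over the 4 other arrays alone the probe sets disagreed, at -0.04 (SE 0.26) for 1422851_at, -0.21 (SE 0.25) for 1450780_s_at and 0.32 (SE 0.46) for 1450781_at.

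Hmga2 is a classical target of let-7. The mature sequences below are shown because the seed, bases 2 to 8 in capitals, is what pairs with the target message, and it is shared by all 9 mature 5′ sequences of the let-7 family found in RefSeq (GRCm38.p6). The microRNAs themselves were not measured.
let-7a-5p (chr13:48538239-48538260, minus strand): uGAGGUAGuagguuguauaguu
let-7b-5p (chr15:85707325-85707346, plus strand): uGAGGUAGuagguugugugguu
let-7d-5p (chr13:48536078-48536099, minus strand): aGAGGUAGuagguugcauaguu
let-7g-5p (chr9:106178846-106178867, plus strand): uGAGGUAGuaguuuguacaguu

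Igf2bp1 had higher means in TFIIA nc/nc on both of its probe sets, and neither passed the test. IGF2BP1 binds messages such as Igf2, Myc and Actb. Probe set 1418761_at read 4.97, 5.45 and 5.65 in TFIIA nc/nc and 3.65, 5.07, 4.99 and 5.31 in wild type. Wild-type replicate 1 was lowest, and the remaining wild-type samples lay within the TFIIA nc/nc range. The difference was 0.60 (SE 0.37, 95% interval -0.24 to 1.44, limma adjusted p = 0.984), and without wild-type replicate 1 it was 0.23. It was 0.20 (SE 0.24) without both wild-type samples of 1 embryo and 1.004 (SE 0.26, limma adjusted p = 0.951) when the endothelial mean entered the fit. Probe set 1449210_at read 4.62, 5.15 and 4.60 in TFIIA nc/nc and 4.83, 4.60, 3.68 and 4.41 in wild type. Here wild-type replicate 3 was lowest and wild-type replicate 1 was the highest of its group, so the probe sets disagreed on which wild-type sample was low. Its difference was 0.41 (SE 0.28, 95% interval -0.21 to 1.03, limma adjusted p = 0.984). The 3 arrays of high endothelial transcripts read above the other 4 on this probe set, by 0.02 at the closest. The difference was 0.23 when the endothelial mean entered the fit, and it was 0.17 without wild-type replicate 3 and 0.23 without TFIIA nc/nc replicate 2. The smallest adjusted p of this probe set over the other settings was 0.384, in the fit without the wild-type samples of 1 embryo, where the difference was 0.75 (SE 0.28).

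Haus6, Lat and Itgb2 had the profiles most like that of Igf2bp1 1418761_at over the 7 arrays, at root mean square differences of 0.14, 0.15 and 0.18 against an SD of 0.65 for Igf2bp1. Haus6 encodes a subunit of the spindle complex augmin, Lat an adaptor of T cell and platelet receptors, and Itgb2 the β subunit of leukocyte integrins. All 3 were lowest in wild-type replicate 1, at 4.59, 3.70 and 5.29. Igf2bp1 was lowest there too, so this follows from choosing genes of like profile.

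Igf2bp3 was measured by 4 probe sets, of which 3 had higher means in TFIIA nc/nc. IGF2BP3 is an oncofetal relative of IGF2BP1 that acts downstream of LIN28B in fetal blood progenitors of the mouse. The brightest probe set, 1422610_s_at, read 7.97, 7.93 and 7.99 in TFIIA nc/nc and 7.73, 7.82, 7.36 and 7.83 in wild type. All 3 TFIIA nc/nc samples lay above all wild-type samples, by 0.10 at the closest. The level averaged 7.96 ± 0.03 over the 3 TFIIA nc/nc samples and 7.69 ± 0.22 over the 4 wild-type samples (SD), and the difference of 0.28 (SE 0.16, 95% interval -0.08 to 0.64) did not pass (limma adjusted p = 0.984, exact permutation p = 0.0857). The difference was 0.17 to 0.33 when any 1 array was left out, lowest without wild-type replicate 3, and 0.32 without the 3 arrays of high endothelial transcripts.

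The other Igf2bp3 probe sets overlapped between the genotypes. Probe set 1422611_s_at read 5.87, 6.75 and 6.68 in TFIIA nc/nc and 6.04, 6.38, 5.97 and 6.66 in wild type (difference 0.17, SE 0.26). Probe set 1450687_at read 4.85, 5.16 and 5.39 in TFIIA nc/nc and 4.87, 4.74, 4.90 and 5.35 in wild type (difference 0.17, SE 0.20). On both, TFIIA nc/nc replicate 1 lay low among the samples, which it did not on the brightest probe set. Leaving out 1 array gave 0.02 to 0.45 for 1422611_s_at, lowest without TFIIA nc/nc replicate 2 and highest without replicate 1, and 0.04 to 0.31 for 1450687_at, lowest without TFIIA nc/nc replicate 3 and highest without replicate 1. Probe set 1453957_a_at was dim in all samples, at 2.48 to 2.95 in TFIIA nc/nc and 2.59 to 3.01 in wild type (difference -0.09, SE 0.18).

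TFIIA acts with TBP at core promoters, so the 250 bases before the start that the RefSeq promoter table (GRCm38.p6) uses are shown for Igf2bp3 and Hmga2, the bright members it lists. For Hmga2 this start is the 5′ end of the gene's annotated span, whereas for Igf2bp3 it lies 515 bases inside the span, which begins further upstream. The motifs searched on both strands were TATAAA, the palindromic E-box CACGTG and CCAAT, and matches are in capitals.
Igf2bp3 (chr6:49214955-49215204, minus strand): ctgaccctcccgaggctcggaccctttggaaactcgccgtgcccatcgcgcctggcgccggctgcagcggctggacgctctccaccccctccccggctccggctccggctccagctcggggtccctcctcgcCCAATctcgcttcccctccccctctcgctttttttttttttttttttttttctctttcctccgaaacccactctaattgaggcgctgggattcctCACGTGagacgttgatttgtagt
Hmga2 (chr10:120476470-120476719, minus strand): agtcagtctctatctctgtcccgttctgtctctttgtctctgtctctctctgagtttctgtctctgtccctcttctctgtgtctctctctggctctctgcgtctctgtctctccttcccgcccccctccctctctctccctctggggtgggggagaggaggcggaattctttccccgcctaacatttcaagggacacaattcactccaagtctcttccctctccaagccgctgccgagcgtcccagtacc
TATAAA was found in neither window, and 12.4% of the 32851 windows in the table hold it. The Igf2bp3 window holds 1 CACGTG, at position -23 from the start used, and 1 CCAAT at position -118, motifs that 6.02% and 33.8% of windows hold. The Hmga2 window holds none of the motifs.

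Arid3a encodes a DNA-binding protein of the ARID family that raises immunoglobulin heavy chain transcription in B cells and is kept on by LIN28B in fetal B lymphopoiesis of the mouse. Its probe set, 1419396_at, read 5.15, 5.12 and 5.36 in TFIIA nc/nc and 5.38, 4.87, 4.83 and 5.38 in wild type. The TFIIA nc/nc samples lay within the wild-type range. The level averaged 5.21 ± 0.13 over the 3 TFIIA nc/nc samples and 5.12 ± 0.31 over the 4 wild-type samples (SD), a difference of 0.09 (SE 0.19, 95% interval -0.33 to 0.52, limma adjusted p = 0.985).

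**Figure D2:**
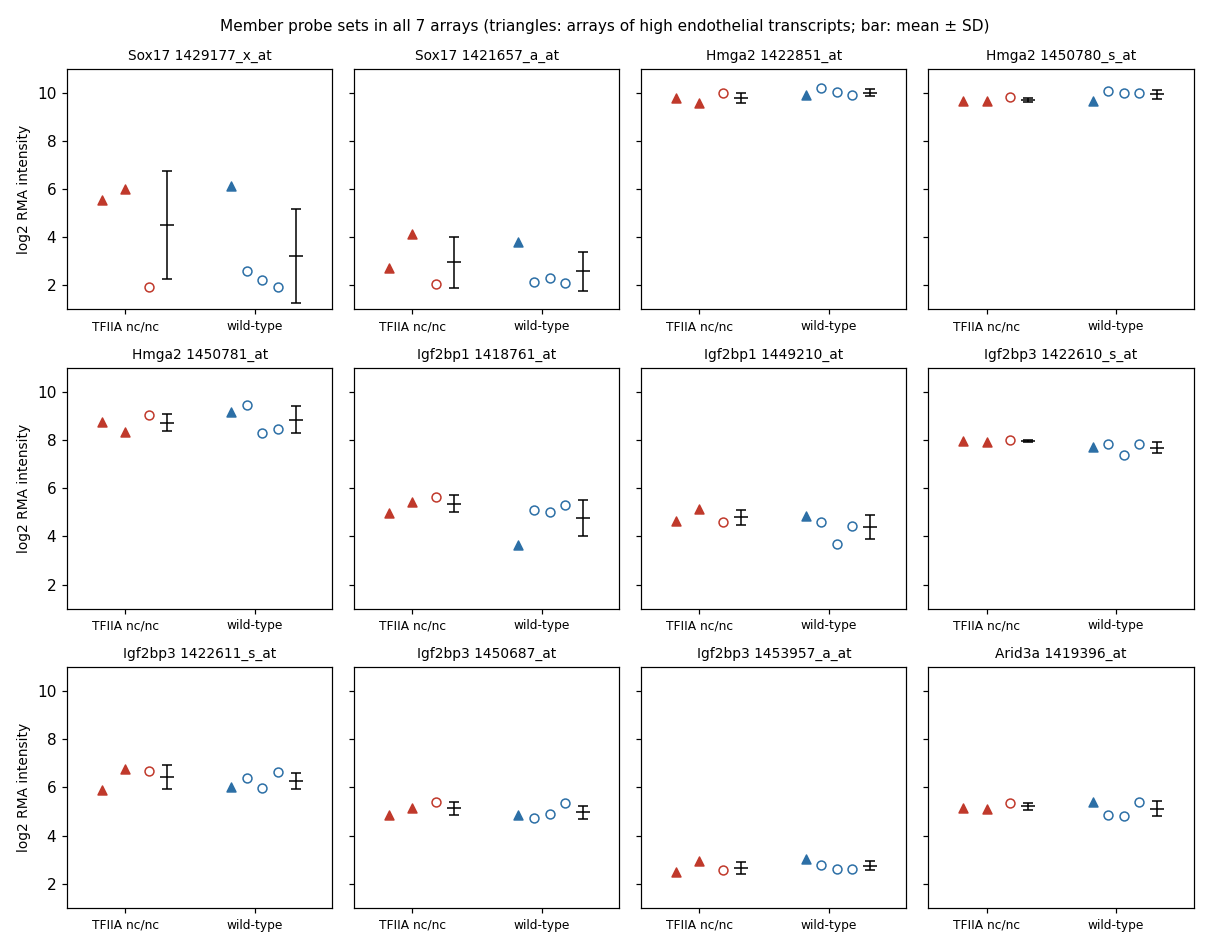
Log2 intensity of the 12 probe sets of Sox17, Hmga2, Igf2bp1, Igf2bp3 and Arid3a in each array, TFIIA nc/nc (red, n = 3) left of wild type (blue, n = 4), replicates from left to right, with the mean ± SD as a bar. Triangles mark the 3 arrays of high endothelial transcripts, which hold the 3 highest values of each Sox17 probe set. Igf2bp3 1422610_s_at is the panel whose genotypes do not overlap.

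None of the 12 probe sets passed the threshold of 0.05 (limma, Benjamini-Hochberg adjusted p = 0.984 to 0.985), and 0 had an unadjusted p under 0.05, the smallest being 0.112. Over all 22626 probe sets, 0.00442% passed, a single probe set of Galc, and 4% had an unadjusted p under 0.05. The genotypes did not overlap for 1 of the 12 probe sets (8.33%), Igf2bp3 1422610_s_at, against 5.65% of all probe sets. The TFIIA nc/nc mean was the higher one in 8 of the 12 (66.7%), against 48.1% of all probe sets. The median difference was 0.17, against -0.01 over all probe sets. Probe sets of the same gene share their transcript, so the 12 are not separate observations.

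**Figure D3:**
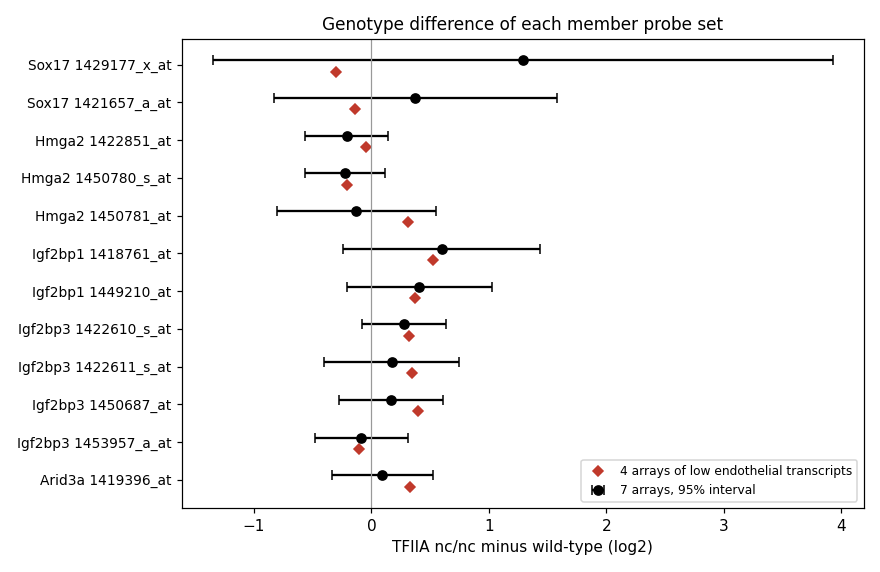
Difference of the genotype means, TFIIA nc/nc minus wild type in log2 units, for the 12 probe sets, over 7 arrays with 95% intervals (black) and over the 4 arrays of low endothelial transcripts (red, 1 TFIIA nc/nc against 3 wild-type samples). Every interval includes 0, the interval of Sox17 1429177_x_at runs from -1.35 to 3.92, and both Sox17 differences change sign over the 4 arrays.

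Genes around these regulators were compared with 1 probe set per gene, and none of the measured members of 6 lists passed the threshold (limma, smallest adjusted p = 0.447), against 0.00807% of all genes. At an unadjusted p under 0.05, 2.02% of the 12393 genes were higher and 2.41% lower in TFIIA nc/nc, and their median difference was -0.01. Among 16 measured let-7 target genes, 2 were higher and 0 lower at that level, with a median difference of -0.09. These were the D cyclins Ccnd1, at 7.63, 7.78 and 7.32 in TFIIA nc/nc and 6.59, 6.67, 6.59 and 6.68 in wild type, and Ccnd2, at 9.08, 9.32 and 9.29 in TFIIA nc/nc and 8.52, 9.06, 8.79 and 8.99 in wild type. Their groups did not overlap, and the differences were 0.94 (SE 0.15, limma adjusted p = 0.447) and 0.39 (SE 0.17, limma adjusted p = 0.984). Mycn, a growth regulator of the same list, differed by -0.45 (SE 0.23). It read lower in the 3 arrays of high endothelial transcripts, at 8.96 to 9.22, than in the other 4, at 9.36 to 10.03. It was the 1 gene of the 16 to do so, and 0 read higher in all 3. The share of all genes that split so was not counted.

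Of the LIN28 and let-7 processing genes, 8 of 14 were measured and 0 had an unadjusted p under 0.05, with a median difference of 0.06. Lin28a, the relative of Lin28b expressed in the early embryo, was dim in all 7 samples, averaging 2.05 ± 0.15 over the 3 TFIIA nc/nc samples and 2.05 ± 0.14 over the 4 wild-type samples (SD). Lin28a was named after its values were seen. Ago2, which carries microRNAs in the silencing complex, differed by 0.49 (SE 0.33), the microRNA-processing nuclease Dicer1 by 0.11 (SE 0.13) and the nuclear export receptor Xpo5 by 0.11 (SE 0.15).

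Of the messages known to be bound by IGF2BP proteins, 5 of 7 were measured, with a median difference of 0.22 and 0 at an unadjusted p under 0.05. Actb, which encodes cytoplasmic actin, differed by 0.41 (SE 0.23), the transcription factor gene Myc by 0.22 (SE 0.17) and the cell cycle kinase gene Cdk6, dim at 2.28 in TFIIA nc/nc and 2.43 in wild type, by -0.15 (SE 0.14).

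All 14 arterial and Notch genes were measured, with a median difference of 0.13, and 1 had an unadjusted p under 0.05. In 6 of the 14, Nrp1, Gja4, Notch4, Efnb2, Acvrl1 and Dll4, the 3 arrays of high endothelial transcripts read above the other 4. The share of all genes that read so was not counted, so the 6 cannot be set against it. The part of this in the list's median was not tested. The gene below that p was Cxcr4, the receptor of the niche chemokine CXCL12, at 3.46, 3.93 and 4.02 in TFIIA nc/nc and 4.35, 4.75, 4.86 and 5.40 in wild type. All TFIIA nc/nc samples lay below all wild-type samples, and the difference of -1.04 (SE 0.25) did not pass (limma adjusted p = 0.984). Nrp1, a co-receptor of VEGF, differed by 1.92 (SE 1.16), at 7.41, 7.67 and 3.38 in TFIIA nc/nc and 6.91, 3.16, 3.66 and 3.21 in wild type. Gja4, a connexin of arterial endothelium, differed by 0.38 (SE 0.24).

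Among 7 Sox relatives the median difference was -0.14, and 0 had an unadjusted p under 0.05. Sox6 differed by -0.54 (SE 0.34), Sox5 by 0.33 (SE 0.23) and Sox4, which acts in lymphoid development and was bright in all samples, by -0.30 (SE 0.29). Of the other HMG and ARID proteins 11 of 15 were measured, with a median difference of -0.22, and 1 had an unadjusted p under 0.05. Hmgn3, a nucleosome-binding protein, read 6.18, 5.81 and 5.93 in TFIIA nc/nc and 6.23, 6.74, 6.38 and 6.34 in wild type. The groups did not overlap, and the difference was -0.45 (SE 0.17, limma adjusted p = 0.984). Arid3b, a relative of Arid3a, differed by -0.37 (SE 0.19) and Hmgn5 by 0.33 (SE 0.24).

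**Figure D4:**
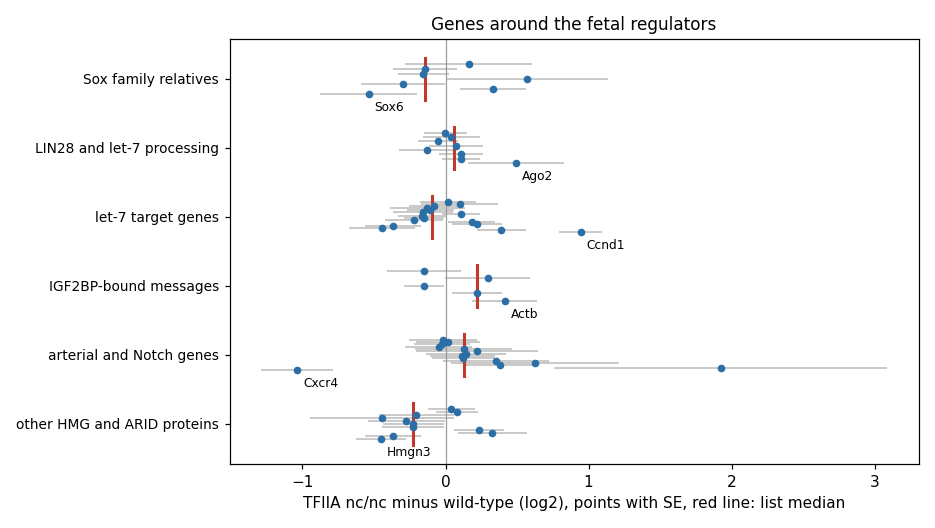
Difference of the genotype means with its SE for each measured gene of the 6 lists, TFIIA nc/nc minus wild type in log2 units, with list medians in red and the gene of smallest p named. The medians lie between -0.22 and 0.22, and the points farthest from 0 are Nrp1 at 1.92 and Cxcr4 at -1.04.

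For Hmga2, Igf2bp3 and Arid3a the genes named by profile had to vary more over the arrays than these members did, so their distances could not be small and are given as values alone. The nearest were Pdzk1ip1, S100a4 and Tmem71 for Hmga2, the first at 0.33. They were Pdpk1, Trip4 and Dnajb4 for Igf2bp3, the first at 0.30, and Slc1a4, Rabep1 and Zfp959 for Arid3a, the first at 0.32.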

How the data were processed

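The deposited values are probe set intensities on a linear scale, which the authors made by RMA with Affymetrix Expression Console, as the submitters' processing notes name it (version not given in the sources used here). This method subtracts background, matches the distributions of arrays and combines the probes of a set, and it understates differences of dim probe sets. Here log2 was taken without a pseudocount, and 64 control probe sets of 22690 were left out. Genes were named by the platform annotation and updated by Entrez identifier with a RefSeq table (GRCm38.p6) that held 12369 of 12393 genes. The annotation gave 1 gene symbol for 20380 probe sets, several for 691 and none for 1555. The genotypes were compared over all 22626 probe sets with limma 3.58.1 (lmFit, eBayes) in R 4.3.3 without covariates, 2-sided, with Benjamini-Hochberg adjustment and a threshold of 0.05. The exact permutation test used the 35 assignments of arrays, so its smallest p is 0.0286. Intervals are 95% and unadjusted. The number of arrays limits the precision. Related and marker genes were read from the brightest probe set naming them alone. All member probe sets and the 3 genes of smallest p per list were named. Members and lists were chosen with earlier results of these data known. The fit was tested on simulated data with noise drawn independently for each probe set and array. Shifts shared by many probe sets of an array were not simulated. Figures used matplotlib 3.10.9.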

Additional observations from a re-analysis of the deposited data

Results flagged for a closer look

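Dixon's criterion, applied to the 4 wild-type samples of 56 values, picked out 11. Chance gives about 5% of separate groups, but the count cannot be set against that, since many of these values share their genes or arrays and 4 of them (Gpr182, Flt4, Clec14a and Trip4) were chosen for profiles like those of Sox17 or Igf2bp3. In 10 of the 11 wild-type replicate 1, an array of high endothelial transcripts, was the sample that stood apart. The gap to the nearest sample made up 0.844 of the range for Sox17 1429177_x_at, where replicate 1 read 6.13 against 1.92 to 2.58 in the others, and 0.881 for Sox17 1421657_a_at, at 3.81 against 2.08 to 2.29. It was 0.877 for the endothelial marker mean and 0.833 for the hepatoblast and hepatocyte marker mean. It was 0.866 for Nrp1, 0.907 for Gja4, 0.928 for Gpr182, 0.842 for Flt4 and 0.860 for Clec14a, and 0.835 for Sox6, which read 4.33 against 2.81 to 3.06. In the remaining case, Trip4 (0.831), wild-type replicate 3 was low, at 4.24 against 5.44 to 5.69.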

How the results depend on the processing

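Under 22 other settings 0 of the members' probe sets passed, and their smallest adjusted p ranged from 0.384 to 1. Of 254 recomputed differences 239 kept their direction and 15 changed it. Settings that changed only the moderation or the choice of probe sets left each difference as it was, so they could not change its direction. The block on replicate number gave the same differences as leaving out wild-type replicate 4. The 239 thus include values that are not separate checks. Sox17 1429177_x_at was -0.3277 with the endothelial covariate and -0.2985 without the 3 arrays of high endothelial transcripts, and Sox17 1421657_a_at -0.2872 and -0.1375. Hmga2 1450781_at was 0.3953 with a sex measure (level of Y-linked genes less Xist) as a covariate, 0.3341 with pooled samples only and 0.3152 without the 3 arrays. The sex measure was 0.52 and 1.21 in wild-type replicates 1 and 2, the samples of 1 embryo. In the pooled samples it was -9.85 to -4.51. The covariate and the setting of pooled samples only thus set apart the same samples and are not separate checks. Igf2bp3 1453957_a_at was 0.07118 with the sex measure and 0.06253 with pooled samples. The cause was not tested. Leaving out 1 array gave -0.003293 to 0.1821 for Arid3a, the negative value without wild-type replicate 3, -0.3092 to 0.07922 for Hmga2 1450781_at, -0.226 to 0.004104 for Igf2bp3 1453957_a_at and -0.205 to 0.8336 for Sox17 1421657_a_at. Over all probe sets 1 passed. The count was 0 without moderation, 14 with pooled samples, 0 without the 3 arrays, and 1 to 2 leaving out 1 array, with 2 without wild-type replicate 3. With the replicate number as a block it was 1, and 0 members passed. Same-numbered samples deviated together at correlations of 0.364, -0.145 and 0.048, and 1 of 3 correlated best with its own number. Both samples numbered 1 are arrays of high endothelial transcripts. With 3 pairs these values cannot settle whether the numbers pair the samples, and the labels do not say.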
